A study of Mus musculus with 5 samples.

Results

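Chemokine and colony-stimulating factor genes were examined in 6DT1, a metastatic mouse mammary carcinoma cell line, after shRNA knockdown of *Arid4b*, which encodes a chromatin-associated subunit of the mSIN3A complex. The genes were taken by symbol, as *Ccl*, *Cxcl* or *Cx3cl* followed by a digit together with *Csf1*, *Csf2* and *Csf3*, and they numbered 36 of the 19938 genes that had a probe set with 1 symbol. They comprised 19 CC chemokines, 13 CXC chemokines, 1 CX3C chemokine and 3 colony-stimulating factors. RNA from 5 lines was hybridised to 5 Affymetrix Mouse Gene 1.0 ST arrays, 1 per line. The knockdown cohort was H3 and H4, which carried 2 different *Arid4b* hairpins in the pLKO.1 lentiviral vector. The control cohort was H5, which carried a further *Arid4b* hairpin that left the protein at the control level, a line with a scrambled hairpin in the same vector, and untransduced 6DT1 cells. H3, H4, H5 and the scrambled line were puromycin-selected and were pools of clones, whereas the untransduced cells were not selected. ARID4B densitometry in the labels was 0.19 for H3 and 0.15 for H4, against 1.02 for H5, 1.00 for the scrambled line and 1.09 for untransduced cells, relative to the scrambled line.

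Chemokines are small secreted or membrane-tethered proteins that bind G protein-coupled receptors on leukocytes and other cells and direct their migration along a gradient. CC and CXC ligands are named for the spacing of their first conserved cysteines, and many are induced by inflammatory cytokines through NF-kB or by interferons. Colony-stimulating factors act on receptors of myeloid precursors, macrophages and granulocytes. Mammary carcinoma cells can secrete members of both families, among them Ccl2 and Csf1, which recruit and maintain macrophages.

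The targeted gene was measured first. *Arid4b* read 6.88 for H3 and 7.35 for H4, against 8.24 for H5, 8.34 for the scrambled line and 8.36 for untransduced cells, in log2 units of normalized array signal, which is the unit of every level below. Both knockdown lines lay below every control line, with a log2 fold change (knockdown minus control) of -1.20 (SE 0.15, limma adjusted p = 0.217). Of 8 epithelial marker genes, 6 were above the background bound defined below, among them *Krt8* at 12.10 and 11.81 in the knockdown lines, against 12.26, 12.19 and 12.09 in the control lines, while *Epcam* and *Cldn7* were at or below it. Of 8 fibroblast marker genes, 6 were also above it, among them *Col1a1* at 7.79 and 7.48 in H3 and H4, against 7.34, 7.48 and 7.36 in the control lines. Of 4 endothelial marker genes, 1 was above it. These counts do not set the epithelial list apart from the fibroblast list. Of 9 leukocyte marker genes measured, 5 were at or below the bound, namely *Ptprc*, *Adgre1*, *Lyz2*, *Csf1r* and *Fcgr3*, and the median of the list lay between 5.54 and 5.73 in the knockdown lines and between 5.68 and 5.74 in the control lines. *Cd68*, a lysosomal glycoprotein abundant in macrophages, was bright among the other 4, at 10.96 and 10.96 in the knockdown lines, against 10.07, 10.02 and 9.93 in the control lines (log2 fold change 0.95, limma unadjusted p = 2.97e-05, adjusted p = 0.147). Its part in any result below was not tested. The median over all probe sets was 6.35 for H3 and 6.24 for H4, against 6.24 to 6.25 for the control lines, and the higher value of H3 lay in dim genes, as given below. No gene passed an adjusted p under 0.05 in limma (0.0% of 19938), so none of the 36 members did, and counts at an unadjusted p under 0.05 are given instead. With 1 array per line, no separate cultures are described, so p-values reflect only how far these 5 arrays scatter, some of which can be technical. In bulk RNA a lower level could be less RNA per cell or fewer cells with the RNA, which cannot be told apart here.

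A background bound was set from sensory receptor genes, which are normally restricted to sensory neurons. It was the 95th percentile of the mean levels of 1203 odorant, vomeronasal and trace amine receptor genes, at 5.90. Of the 36 members, 14 had a mean over the 5 arrays above it and 22 did not. The genes above it were 8 of 19 CC chemokines (*Ccl2*, *Ccl5*, *Ccl7*, *Ccl11*, *Ccl17*, *Ccl19*, *Ccl20* and *Ccl25*), 3 of 13 CXC chemokines (*Cxcl1*, *Cxcl16* and *Cxcl17*), *Cx3cl1*, and *Csf1* and *Csf3*. The division was narrow: against a bound of 5.897, *Cxcl16* averaged 5.901 just inside and *Cxcl14* 5.881 just outside. At the 99th percentile of the same receptor genes, 6.74, only 7 members remained above, namely *Ccl2*, *Cx3cl1*, *Csf1*, *Cxcl1*, *Ccl5*, *Ccl17* and *Ccl25*, and the other 7 lay between those percentiles. Signal depends on the probes as well as on RNA, and the order of genes by level is therefore no order of RNA amounts. The plot of all members by line shows how closely the 5 lines lay for most genes.

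**Figure D1:**
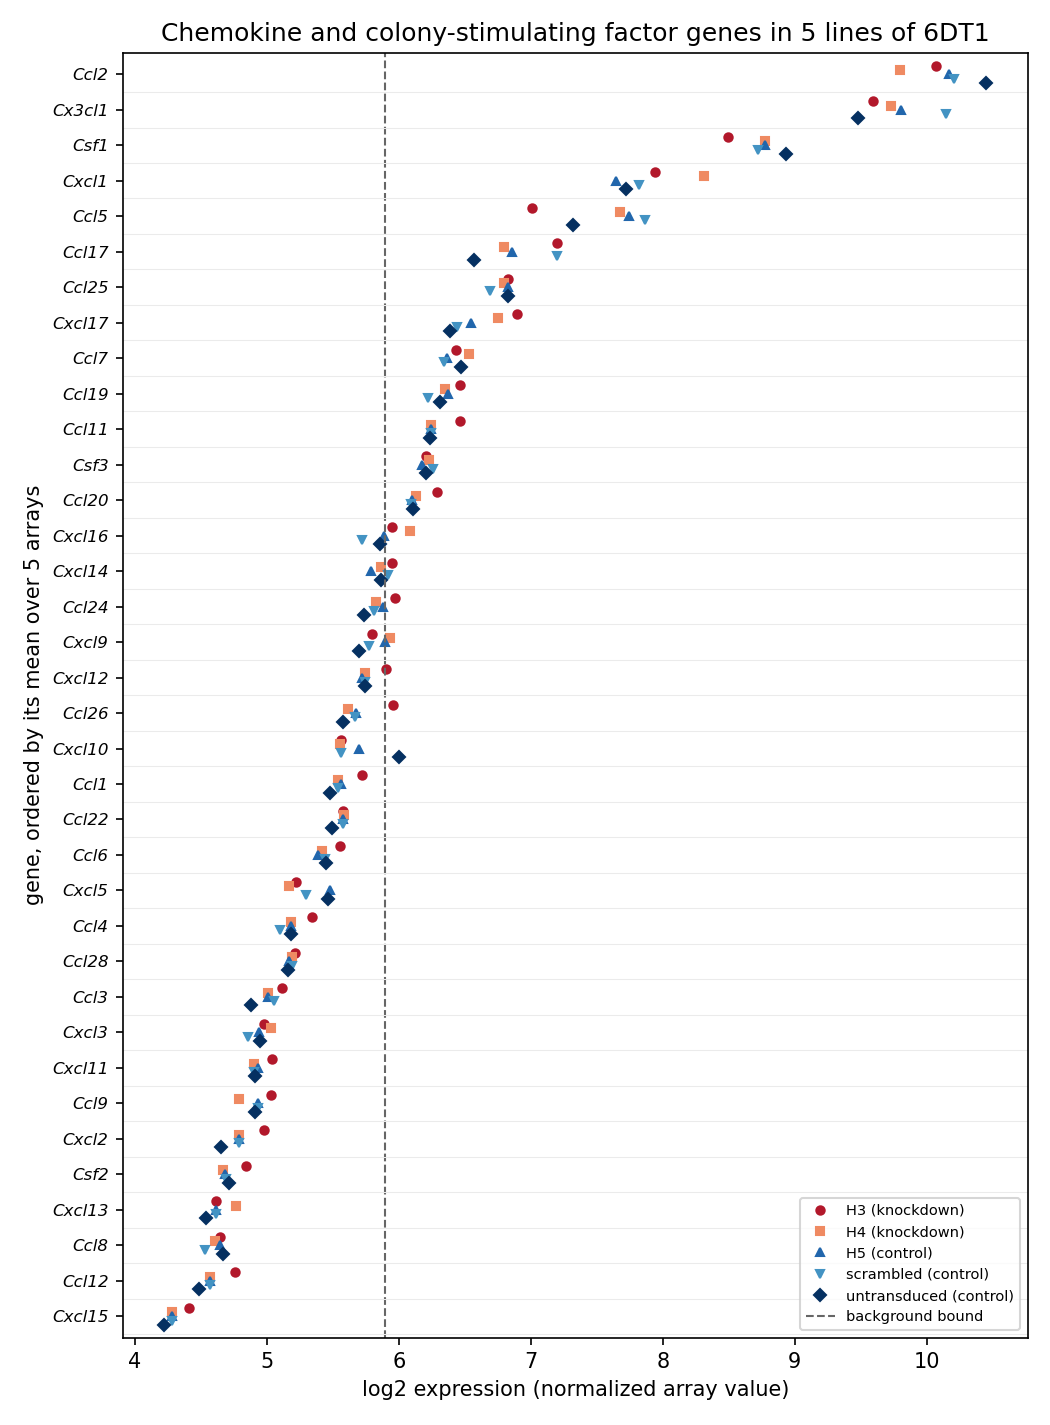
Normalized log2 expression (x axis) of the 36 members (y axis, ordered by mean over the 5 arrays) in each line, 1 point per array, with the background bound of 5.90 as a dashed line. Of the 36 genes, 14 lie above the bound, and *Ccl2* and *Cx3cl1* stand at the top with values between 9.48 and 10.45.

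The CXC ligands of Cxcr2, the receptor that draws neutrophils, numbered 5 among the members (*Cxcl1*, *Cxcl2*, *Cxcl3*, *Cxcl5* and *Cxcl15*), of which only *Cxcl1* was above the bound. *Ppbp*, a Cxcr2 ligand of platelets that the choice by symbol does not take, was also above it, at 6.58 and 6.38 in H3 and H4, against 6.62, 6.46 and 6.62 in H5, the scrambled line and untransduced cells. *Cxcl1*, *Cxcl2* and *Cxcl3* lie in a cluster on chromosome 5 together with *Cxcl5* and *Cxcl15*. The promoters of these 3 genes share a short motif, shown here because only 1 of the 3 gave a signal above the bound. The motif GGANTTTCC, a form of the NF-kB core, was searched on both strands of 300-base promoters (250 bases before and 50 after the start of each gene, RefSeq, GRCm38.p6), and capitals mark the match. The windows are chr5:90890995-90891294 for *Cxcl1*, chr5:90903649-90903948 for *Cxcl2* and chr5:90785851-90786150 for *Cxcl3*, all on the + strand.
Cxcl1: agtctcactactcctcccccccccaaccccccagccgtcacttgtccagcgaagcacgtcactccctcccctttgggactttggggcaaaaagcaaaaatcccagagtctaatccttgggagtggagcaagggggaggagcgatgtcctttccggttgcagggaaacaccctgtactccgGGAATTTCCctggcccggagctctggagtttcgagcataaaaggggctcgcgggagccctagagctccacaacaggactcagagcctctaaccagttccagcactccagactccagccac
Cxcl2: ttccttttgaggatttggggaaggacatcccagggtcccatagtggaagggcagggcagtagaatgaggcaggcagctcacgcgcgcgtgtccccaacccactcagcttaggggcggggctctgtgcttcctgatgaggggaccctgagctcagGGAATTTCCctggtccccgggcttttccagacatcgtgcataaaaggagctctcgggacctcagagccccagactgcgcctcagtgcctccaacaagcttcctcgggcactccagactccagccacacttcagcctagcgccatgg
Cxcl3: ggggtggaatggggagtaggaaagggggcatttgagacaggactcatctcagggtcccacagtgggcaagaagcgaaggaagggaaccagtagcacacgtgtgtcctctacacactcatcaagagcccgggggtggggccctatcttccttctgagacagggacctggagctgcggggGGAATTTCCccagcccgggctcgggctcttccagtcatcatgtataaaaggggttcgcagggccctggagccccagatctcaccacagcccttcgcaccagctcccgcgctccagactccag
The match GGAATTTCC began 70 bases before the start site in *Cxcl1*, 96 bases before it in *Cxcl2* and 72 bases before it in *Cxcl3*, always on the strand of the gene. Of the 24 members with a promoter in the table, 5 held the motif, and it stood in 412 of all 32851 promoters (1.25%). The other 2 matches were on the opposite strand, as GGAATTTCC in *Cxcl10* and GGACTTTCC in *Csf1*. Among members above the bound, 2 of the 7 with a promoter held it (*Cxcl1* and *Csf1*), so a match was present in genes on either side of the bound.

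*Cxcl1*, a neutrophil chemoattractant, read 7.94 for H3 and 8.31 for H4, against 7.65 for H5, 7.82 for the scrambled line and 7.72 for untransduced cells. Both knockdown lines were above all control lines, and H4 was the higher of them by 0.37. The log2 fold change was 0.40 (SE 0.13, 95% interval 0.06 to 0.74, a fold of 1.32), with a limma unadjusted p of 0.0299 and an adjusted p of 0.365. The unadjusted p stayed under 0.05 in 5 of 12 alternative analyses, which are not all independent of one another, as given with the processing below. It was 0.0083 without H3, but 0.094 without H4 (log2 fold change 0.21), 0.0933 without H5, 0.0513 without the scrambled line and 0.0823 without untransduced cells. *Cxcl5*, another Cxcr2 ligand and a neighbour of *Cxcl1*, was near background at 5.22 for H3 and 5.17 for H4, against 5.48 for H5, 5.30 for the scrambled line and 5.47 for untransduced cells. Both knockdown lines lay below all control lines, by a log2 fold change of -0.22 (SE 0.073, limma unadjusted p = 0.033, adjusted p = 0.373), and the unadjusted p stayed under 0.05 in 5 of 11 alternatives. With a line left out it was under 0.05 only without the scrambled line (0.00866), and was 0.0927 to 0.153 without any other line. *Cxcl3* read 4.98 and 5.03 in H3 and H4, against 4.94, 4.85 and 4.95 in H5, the scrambled line and untransduced cells. Its groups did not overlap, but the difference was only 0.09 (SE 0.052) and every value lay under the bound. *Cxcl2* and *Cxcl15* had the same value in H4, H5 and the scrambled line, and only H3 stood above it.

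The remaining CXC ligands were mostly near background. *Cxcl17*, a mucosal chemokine, read 6.90 for H3 and 6.75 for H4, against 6.54 for H5, 6.44 for the scrambled line and 6.39 for untransduced cells. Both knockdown lines were above all control lines, and H3 exceeded H4 by 0.15. The log2 fold change was 0.37 (SE 0.075, 95% interval 0.17 to 0.57, a fold of 1.29). Its limma unadjusted p of 0.00584 was the smallest among the 36 members, its adjusted p was 0.292, and the unadjusted p stayed under 0.05 in all 12 alternatives, at 0.00331 to 0.0391. *Cxcl16*, a transmembrane chemokine and ligand of Cxcr6, read 5.95 and 6.09 in H3 and H4, against 5.89, 5.72 and 5.86 in H5, the scrambled line and untransduced cells. Its groups did not overlap, but its log2 fold change of 0.19 (SE 0.078) had a limma unadjusted p of 0.0597 and an adjusted p of 0.438. The 3 ligands of Cxcr3, which attracts activated T cells, were all at or below the bound. Of these, *Cxcl10*, an interferon-induced chemokine, read 5.56 and 5.56 in H3 and H4, against 5.70, 5.56 and 6.00 in H5, the scrambled line and untransduced cells. Both knockdown lines were below all control lines, but the scrambled line lay close to them and the untransduced cells stood apart, and the difference of -0.20 (SE 0.14) was smaller than the control range of 0.44.

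The monocyte chemoattractants gave the brightest member. *Ccl2*, the principal ligand of Ccr2 on monocytes, read 10.07 for H3 and 9.80 for H4, against 10.16 for H5, 10.20 for the scrambled line and 10.45 for untransduced cells. Both knockdown lines were below all control lines, and H4 was the lower of them by 0.27. The log2 fold change was -0.34 (SE 0.13, 95% interval -0.68 to 0.0009, a fold of 0.789), and the limma unadjusted p of 0.0504 was just outside the threshold (adjusted p = 0.42). It came under 0.05 in 4 of 12 alternatives, among them subtraction of each array's median (log2 fold change -0.39, unadjusted p = 0.0171). Another of the 4, the mean of probe sets, left the *Ccl2* log2 fold change as it was, with a limma unadjusted p that rounds to 0.05. The other scaling, quantile normalization, gave a log2 fold change of -0.28 (limma unadjusted p = 0.0838). Without H4 the log2 fold change was -0.21 (unadjusted p = 0.276). *Ccl7*, which shares Ccr2 with *Ccl2* and is its neighbour on chromosome 11, read 6.43 and 6.53 in H3 and H4, against 6.36, 6.34 and 6.48 in H5, the scrambled line and untransduced cells. Its groups overlapped and its log2 fold change was 0.09 (SE 0.064). The other members of the group, *Ccl8* and *Ccl12*, were near background at 4.48 to 4.76.

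Of the inflammatory CC chemokines *Ccl3*, *Ccl4*, *Ccl5*, *Ccl6* and *Ccl9*, which attract monocytes and T cells, only *Ccl5* was above background. *Ccl5* read 7.01 for H3 and 7.68 for H4, against 7.75 for H5, 7.87 for the scrambled line and 7.32 for untransduced cells. H3 lay below every control line and H4 lay within their range, so the knockdown lines did not move together. H3 was 0.64 below the control mean, H4 was 0.03 above it, and the cohort difference of -0.30 (SE 0.27) had a limma adjusted p of 0.571. The control lines themselves spanned 0.55. *Ccl5* was the only member with a step of 0.5 or more between the knockdown lines, H4 over H3 (1 of 36, against 4.03% of all genes), and no member had such a step with H3 over H4 (0 of 36, against 1.82%). *Ccl9*, *Ccl6*, *Ccl3* and *Ccl4*, its neighbours on chromosome 11, were all at or below the bound, at 4.79 to 5.56.

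The CC ligands of lymphoid and mucosal tissue and of Th2-associated receptors showed little. *Ccl17*, a ligand of Ccr4, read 7.20 and 6.80 in H3 and H4, against 6.86, 7.20 and 6.57 in H5, the scrambled line and untransduced cells, and all its knockdown values lay within the control range. *Ccl20*, the ligand of Ccr6, read 6.29 and 6.13 in H3 and H4, against 6.10, 6.09 and 6.11 in H5, the scrambled line and untransduced cells. Both knockdown lines were above all control lines, but the log2 fold change was 0.11 (SE 0.062) and most of it was in H3. The eotaxin *Ccl11* read 6.46 and 6.24 in H3 and H4, against 6.24, 6.24 and 6.24 in H5, the scrambled line and untransduced cells, so only H3 stood apart. *Ccl25*, a thymic and intestinal chemokine, had 6.83 and 6.80 in H3 and H4, against 6.83, 6.69 and 6.83 in the same control lines. *Ccl19*, a ligand of Ccr7 in lymphoid tissue, had 6.46 and 6.35 in H3 and H4, against 6.38, 6.22 and 6.31 in them, and its log2 fold change was 0.10 (SE 0.070).

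*Cx3cl1*, the membrane-tethered ligand of Cx3cr1, read 9.59 for H3 and 9.73 for H4, against 9.81 for H5, 10.15 for the scrambled line and 9.48 for untransduced cells. The knockdown values lay inside a control range of 0.67, and the log2 fold change was -0.15 (SE 0.21, limma adjusted p = 0.717). *Csf1*, the macrophage growth factor, read 8.50 for H3 and 8.77 for H4, against 8.77 for H5, 8.72 for the scrambled line and 8.93 for untransduced cells. H3 was below all control lines, at 0.31 under their mean, and H4 was 0.04 under it and within their range, so the groups overlapped. The log2 fold change was -0.17 (SE 0.11, limma adjusted p = 0.496). *Csf3*, the granulocyte factor, read 6.21 and 6.23 in H3 and H4, against 6.18, 6.26 and 6.21 in H5, the scrambled line and untransduced cells, and differed by 0.01 (SE 0.046). *Csf2*, which acts on granulocytes and macrophages, was near background at 4.67 to 4.84.

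**Figure D2:**
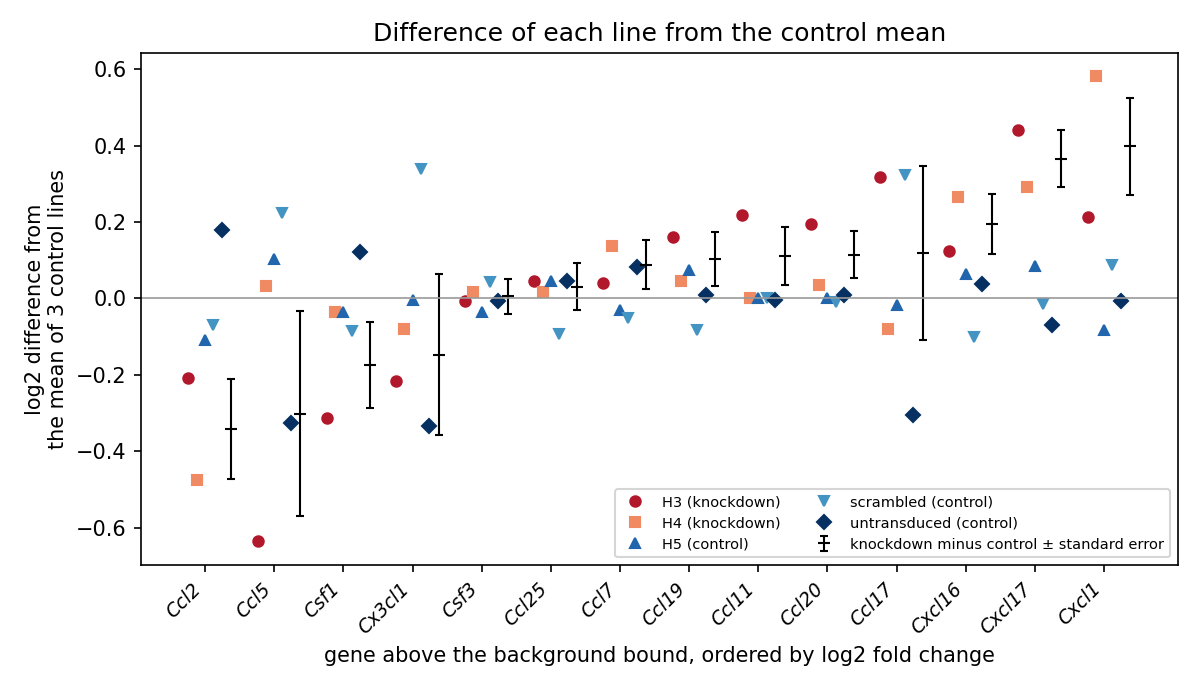
Log2 difference of each line from the mean of the 3 control lines (y axis) for the 14 members above the background bound (x axis, ordered by log2 fold change), with 1 point per array, and the knockdown minus control difference with its standard error as a black bar. *Ccl2* stands at the left with both knockdown lines below 0, and *Cxcl17* and *Cxcl1* at the right with both above it.

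Across the 36 members, 2 were higher in the knockdown cohort at an unadjusted p under 0.05 in limma (*Cxcl1* and *Cxcl17*, against 4.34% of all genes higher) and 1 was lower (*Cxcl5*, against 7.61% lower). Both knockdown lines exceeded all control lines for 5 members (*Cxcl1*, *Cxcl3*, *Cxcl16*, *Cxcl17* and *Ccl20*), against 13.9% of all genes, and lay below all of them for 3 (*Ccl2*, *Cxcl5* and *Cxcl10*), against 13.5%. On either side of the bound the shares differed. Both knockdown lines exceeded all control lines for 4 of the 14 members above the bound, against 14.3% of genes above it, and lay below all of them for 1 of these 14 (*Ccl2*), against 19.6%. Both lay below all control lines for 2 of the 22 members at or below the bound (*Cxcl5* and *Cxcl10*), against 1.79% of such genes. Of the calls at an unadjusted p under 0.05 in limma, both higher members were among the 14 above the bound, where 5.47% of genes were higher, and *Cxcl5* was among the 22, where 0.426% were lower. After each array's median was subtracted, both knockdown lines exceeded all control lines for 9 members, against 16.6% of all genes, but for 6 of the 9 H4 had the same deposited value as the highest control line, so that a shift of the whole array made the difference. *Cxcl3* and *Cxcl16* were not among the 9, since H3 then lay below H5 in both. The median log2 fold change was 0.10 for the 14 members above the bound, against 0.01 for all genes above it, and it turned to -0.15 for the 7 members above the 99th percentile. It was 0.03 without H3, 0.06 without the scrambled line, and 0.05 both with array medians subtracted and with quantile normalization. The differences from the control mean that make up these values are shown gene by gene in the plot of the members above the bound.

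H3 and H4 were then set apart. H3 exceeded all control lines for 22 of 36 members, against 46.9% of all genes, and lay below all of them for 5 (*Ccl2*, *Ccl5*, *Csf1*, *Cxcl5* and *Cxcl10*), against 26.6%. H4 exceeded all control lines for 9 members, against 25.7% of all genes, and lay below all of them for 5 (*Ccl2*, *Ccl9*, *Csf2*, *Cxcl5* and *Cxcl10*), against 27.7%. With each array's median subtracted, H3 exceeded all control lines for 14 members, against 28.0% of all genes, and H4 for 16, against 42.9%. For 7 of those 16, H4 had equalled the highest control line as deposited, so the shift of the arrays alone put them above it. With quantile normalization the counts were 15 for H3, against 45.5% of all genes, and 10 for H4, against 35.6%. *Ccl9* and *Csf2*, both near background, were on opposite sides, above all control lines in H3 and below them all in H4. In limma fits with 1 knockdown line, which assume that the lone line varies as the control lines do, H3 was higher for 13 members at an unadjusted p under 0.05 (24.6% of all genes) and lower for 0 (9.96%). *Ccl11* and *Ccl20* had an adjusted p of 0.0486 in the H3 fit, which called 6.35% of all genes. H4 was higher for 3 members (*Cxcl1*, *Cxcl13* and *Cxcl17*, against 6.87% of all genes) and lower for 1 (*Ccl9*, against 9.06%), and no member passed the adjusted threshold there (0.0% of all genes). *Ccl11* and *Ccl20* stood only 0.22 and 0.19 above the control mean in H3, beside control standard deviations of 0.0029 and 0.0092. Both averaged under the 99th percentile of the receptor genes, at 6.29 and 6.14 against 6.74. The lone-line differences of H3 and H4 were not tested against each other. The plot of H3 against H4 places *Ccl2*, *Cxcl1* and *Cxcl17* on the same side of 0 in both lines, and *Ccl5* and *Csf1* away from 0 in H3 only.

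**Figure D3:**
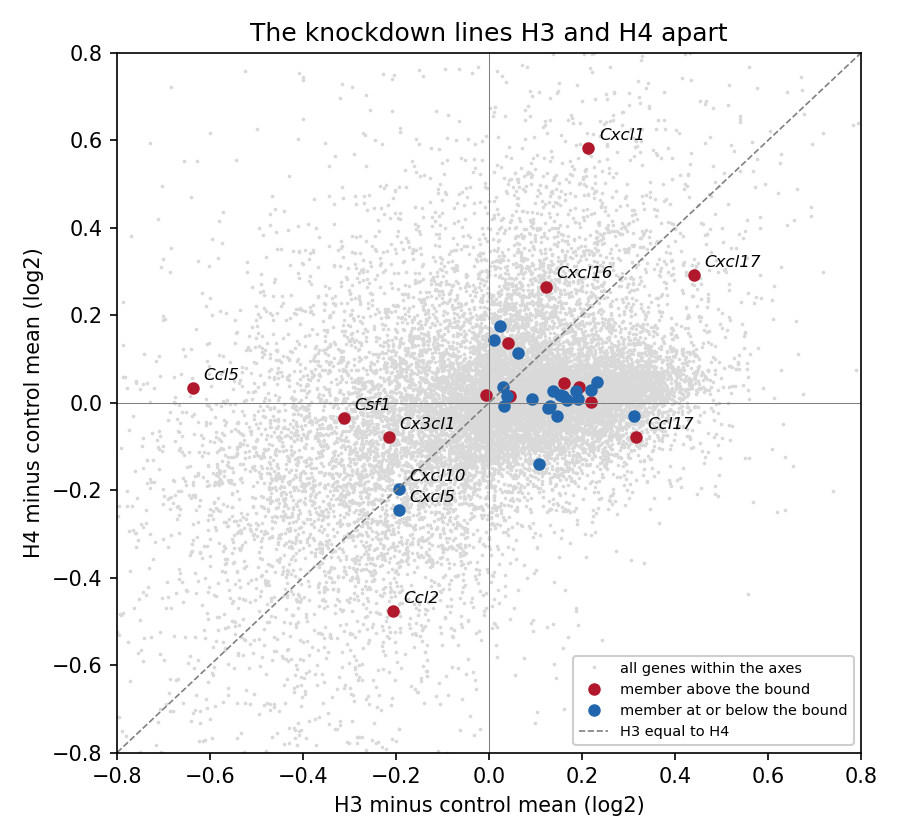
Difference from the mean of the control lines in H3 (x axis) and in H4 (y axis), in log2 units, for members above the bound (red), members at or below it (blue) and all genes within the axes (grey), with equality as a dashed line. *Ccl5* lies at -0.64 in H3 and 0.03 in H4, and most blue points lie to the right of 0 and close to 0 in H4.

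The count for H3 came mainly from genes near background. Over all genes, the median difference of H3 from the control mean was -0.0028 above the bound and 0.0875 at or below it. Among the 22 members at or below the bound, 16 were above all control lines in H3, against 65.0% of all genes at or below it, and 4 were in H4, against 19.1% of such genes. H3 was above H4 for 18 of the 22, against 75.0% of such genes. The median difference from the control mean in these members was 0.13 in H3 and 0.01 in H4, against 0.09 and 0.01 over all genes at or below the bound. Both lines exceeded all control lines for 1 of the 22, *Cxcl3*, against 13.1% of such genes. Log2 fold changes in the 22 ran between -0.22 and 0.14, and 19 of them were above 0. The receptor genes that set the bound moved likewise, with a median of 4.26 in H3 and 4.18 in H4, against 4.18 to 4.19 in the control lines. Part of the data had repeated values: 17 of the 36 members (47.2%) and 38.4% of all genes had exactly the same deposited value on at least 2 arrays (a tolerance of 0), as for *Ccl11* and *Cxcl2* above, so small differences between lines in these genes may not be resolved.

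**Figure D4:**
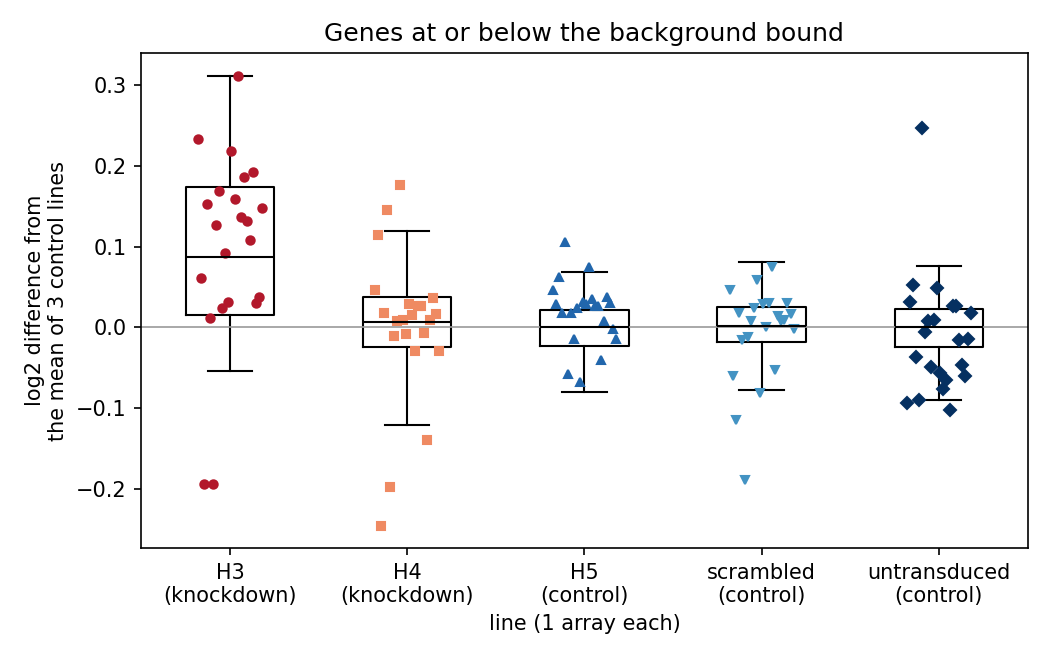
Log2 difference from the mean of the control lines (y axis) in each line (x axis) for genes at or below the background bound, with boxes for all such genes (box at the quartiles, whiskers at the 5th and 95th percentiles) and points for the 22 members. The members and the boxes are both raised in H3, with medians of 0.13 and 0.09, and lie near 0 in H4.

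Genes that act with these ligands were counted from lists, at an unadjusted p under 0.05 in limma, a threshold that 4.34% of all genes passed as higher and 7.61% as lower. Of 22 chemokine receptor genes measured, 7 were above the bound, and *Cxcr2*, *Ccr2* and *Cxcr4* were not. At that threshold 0 receptor genes were higher and 1 was lower, the scavenging receptor *Ackr3*, with 6.26 and 5.90 in H3 and H4, against 6.63, 6.52 and 6.45 in H5, the scrambled line and untransduced cells (log2 fold change -0.46, limma unadjusted p = 0.0173). That call was lost with the equal-variance test and without H4, H5 or the scrambled line. Of 6 genes comprising the colony-stimulating factor receptors and *Il34*, the alternative ligand of the Csf1 receptor, 1 was higher (*Csf1r*, near background) and 1 was lower. The *Csf1r* call was lost with puromycin as a covariate and with each control line left out. The lower gene was *Il34*, at 7.67 and 7.60 in H3 and H4, against 7.94, 8.03 and 7.84 in H5, the scrambled line and untransduced cells (log2 fold change -0.30, limma unadjusted p = 0.0106, adjusted p = 0.313). The *Il34* call was lost without H4. Of 16 NF-kB pathway genes measured, 0 were higher and 1 was lower, *Bcl3*, and of 13 interferon pathway genes 0 were higher and 2 were lower, *Ifnar1* and *Irf1*. The *Bcl3* call was lost with quantile normalization, with limma's trend and robust options, with the equal-variance test, with puromycin as a covariate, with genes at or below the bound left out, and without the scrambled line or untransduced cells. *Irf1*, an interferon-induced transcription factor, read 7.87 and 7.85 in H3 and H4, against 8.38, 8.23 and 8.23 in H5, the scrambled line and untransduced cells (log2 fold change -0.42, limma unadjusted p = 0.00181, adjusted p = 0.249). In the interferon list only 1 gene was lower with quantile normalization, with limma's trend and robust options, or with the equal-variance test. The same held without H5 or the scrambled line. Other genes of that list separated H3 and H4 as *Ccl5* did, a comparison made after the values were seen: H4 exceeded H3 by 0.5 or more for 8 of the 13, against 4.03% of all genes. *Irf7*, an interferon-induced regulator, read 7.25 and 8.26 in H3 and H4, against 7.39, 7.89 and 6.75 in H5, the scrambled line and untransduced cells. *Oasl2*, an interferon-induced gene, read 8.46 and 9.22 in H3 and H4, against 8.85, 9.15 and 7.84 in the same control lines. In both genes, as in *Ccl5*, H3 was below H4 and untransduced cells were the lowest control line, and the part of this in the *Ccl5* values was not tested. Of 15 genes of cytokines that induce chemokines and their receptors, 0 were higher and 1 was lower, *Il1rap*, and *Il1a*, *Il1b*, *Il6* and *Tnf* were at or below the bound. The *Il1rap* call was lost with puromycin as a covariate and with each control line left out. Of 22 other secreted growth factor genes measured, 0 were higher and 0 lower at that threshold. With array medians subtracted 2 were lower, and with quantile normalization 1 was higher. The share of all genes called under those scalings was not counted. Of 4 chemokine or chemokine-like genes outside the choice by symbol, 0 were higher and 1 was lower, the chemokine-like factor *Cklf* (log2 fold change -0.40, limma unadjusted p = 0.0205). The *Cklf* call was lost with the equal-variance test, with puromycin as a covariate, and without H3, H4, H5 or untransduced cells. No gene of these lists passed an adjusted p under 0.05.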

How the data were processed

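The deposited table holds log2 expression values for 35556 probe sets on 5 arrays, normalized by the authors. Partek and RMA are named in the submitters' processing notes, with versions not given in the sources used here. A probe set was named where the platform annotation gave 1 symbol (21789 probe sets); 1621 had several and 12146 are unnamed here. Among those with several symbols, 7 were chemokine probe sets, and the 6 chemokine symbols found only there were left out. Each gene was read from its probe set of highest mean (*Ccl19* had 5 probe sets and *Ccl25* 2).

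Cohorts were compared over all 19938 genes in R 4.3.3 by limma 3.58.1 (lmFit, then eBayes, two-sided, Benjamini-Hochberg adjustment), a step tested on simulated data. Residual degrees of freedom were 3, with 1.58 prior degrees of freedom, so the number of arrays limits the precision. Members, lists, tests and the genes described were chosen with earlier results of these data known. By rule, every member above the background bound was named, with those below it that had an unadjusted p under 0.05 or an H3 to H4 step of 0.5, and up to 4 genes above the bound per list. Other genes given with values were chosen after their values were seen. Alternatives were other scalings, bounds, probe set summaries and limma options, an equal-variance test, puromycin as a covariate, and each line left out. Some of them repeat others. Untransduced cells were the only unselected line, so puromycin as a covariate gave the same fit as leaving them out. The mean of probe sets changed the log2 fold change of no named member except *Ccl19* and *Ccl25*. Counts of alternatives are therefore not counts of independent checks. Figures were drawn with matplotlib 3.10.9.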

Additional observations from a re-analysis of the deposited data

How the results depend on the processing

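Of 179 values of 15 named members under the alternatives, 159 kept their side of the unadjusted threshold, 13 lost it, 6 gained it, 1 changed sign by more than its standard error (*Ccl5*, 0.03 without H3) and 0 reversed a call. The signs of *Ccl5*, *Ccl17*, *Ccl25*, *Cx3cl1* and *Csf3*, none past the threshold, changed in at least 1 alternative. The count of higher members (2) was 1 with array medians subtracted, with the equal-variance test and with puromycin as a covariate, and 1 to 13 with a line left out (13 without H4, 3 without H3, 1 without each control line). The count of lower members (1) was 2 with array medians subtracted, with the mean of probe sets and with limma's trend and robust options, 0 with the equal-variance test and with puromycin as a covariate, and 0 to 1 with a line left out (0 without H4, H5 or untransduced cells). The count past an adjusted p of 0.05 in limma was 0, as with the equal-variance test, and 0 to 2 with a line left out (2 without H4, *Ccl11* and *Ccl20*). Members above the bound were 7 rather than 14 with the bound at the 99th percentile or at the median of all genes, and their median log2 fold change was then -0.15 (-0.1474). Members with both knockdown lines above all control lines were 9 rather than 5 with array medians subtracted (16.6% of all genes). *Cxcl3* and *Cxcl16*, among the 5, were not among the 9. With a step of 1 no member (0) had H4 over H3. The counts of H3 and H4 above all control lines under other scalings, an alternative chosen after seeing the data, were 14 and 16 with array medians subtracted (28.0% and 42.9% of all genes). The causes were not tested. No paired analysis was possible because the labels give no replicate numbers.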
